A study of Mus musculus with 5 samples.

Results

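Plasmacytoid dendritic cells (pDCs) made up 50 of the 32240 cell barcodes kept in these 5 single-cell libraries from spleens of leukaemic mice. A barcode was counted as a pDC when it held at least 2 unique molecular identifiers (UMIs, each standing for 1 captured transcript) of Siglech and at least 1 UMI of at least 2 of the 5 further genes Ccr9, Cox6a2, Klk1, Pacsin1 and Cd300c. Barcodes with 2 or more UMIs of the T cell genes Cd3d, Cd3e and Cd3g, or with 5 or more UMIs per 10000 of the mast cell genes Cpa3, Ms4a2 and Fcer1a, were left out. The members were therefore chosen by their measured expression, and the levels of these genes are given as a description.

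C57BL/6 mice carried transplanted CMM cells, a GFP-marked mouse acute myeloid leukaemia with the inv(16) lesion. They received 3 intravenous injections, 1 every other day, of CpG-STAT3dODN (a CpG oligonucleotide, which binds the endosomal receptor TLR9, linked to a decoy oligonucleotide that binds the transcription factor STAT3; the Decoy group) or of PBS, the vehicle, starting when about 1% of blood cells were GFP-positive. Spleen cells positive for GFP and c-Kit were sorted, and RNA was counted in 4 Decoy libraries (n = 4, numbered 2, 3, 5 and 6) and 1 PBS library (n = 1). The sorted cells are labelled as leukaemia cells, the number of animals behind a library is not given in the sources used here, and differences between libraries may be technical. All mice of both groups carried the leukaemia, and no library from leukaemia-free mice was analysed here.

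pDCs are dendritic cells that develop in bone marrow under the E protein Tcf4 and are known for releasing large amounts of type I interferon when TLR7 or TLR9 meets nucleic acid in the endosome. Siglech is a sialic-acid-binding receptor of mouse pDCs, Ccr9 a chemokine receptor for homing to thymus and gut, and Pacsin1 an adaptor protein of membrane trafficking. Cox6a2 is the heart and muscle form of a cytochrome c oxidase subunit, Klk1 a tissue kallikrein protease, and Cd300c an immunoglobulin-like receptor.

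E proteins such as Tcf4 bind E-box motifs, and the bases just upstream of the gate genes are shown because Tcf4 was among the genes that marked these cells without being part of the gate. The motif CAGGTG, or CACCTG on the other strand, was searched in the 250 bases before the annotated start of each gene (RefSeq, build GRCm38.p6). It occurred in 4 of the 5 gate genes that had an entry, Siglech, Ccr9, Klk1 and Cd300c, and not in Pacsin1. Of all 27025 promoters, 17.1% held it. The related motif CAGCTG occurred in 0 of these 5 promoters and in 12.8% of all. The capitals mark the motif, 20 bases before the start in Siglech (chr7:55767934-55768183, plus strand), 85 in Ccr9 (chr9:123766961-123767210, plus strand), 87 in Klk1 (chr7:44225110-44225359, plus strand) and 67 in Cd300c (chr11:114960508-114960757, minus strand), counted to the first base of the motif. A match describes the letters and not a bound site. The RefSeq starts used for Ccr9, Cd300c and Pacsin1 lie inside the GENCODE spans of these genes given below. The annotations thus differ on where these genes begin, and no test was made on the 5 promoters.
Siglech: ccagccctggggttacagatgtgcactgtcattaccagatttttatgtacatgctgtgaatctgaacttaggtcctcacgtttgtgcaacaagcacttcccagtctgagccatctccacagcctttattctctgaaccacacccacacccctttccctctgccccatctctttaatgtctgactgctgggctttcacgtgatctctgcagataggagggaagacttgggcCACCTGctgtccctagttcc
Ccr9: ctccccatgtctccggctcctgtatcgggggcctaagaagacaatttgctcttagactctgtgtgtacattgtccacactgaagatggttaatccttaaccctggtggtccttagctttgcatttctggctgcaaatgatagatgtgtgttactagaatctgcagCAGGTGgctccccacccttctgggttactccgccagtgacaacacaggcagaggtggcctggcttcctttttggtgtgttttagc
Klk1: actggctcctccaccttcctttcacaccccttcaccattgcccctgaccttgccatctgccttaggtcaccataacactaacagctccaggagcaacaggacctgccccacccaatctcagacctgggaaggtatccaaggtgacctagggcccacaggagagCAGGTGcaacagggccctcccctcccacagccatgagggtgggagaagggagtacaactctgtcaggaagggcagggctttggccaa
Cd300c: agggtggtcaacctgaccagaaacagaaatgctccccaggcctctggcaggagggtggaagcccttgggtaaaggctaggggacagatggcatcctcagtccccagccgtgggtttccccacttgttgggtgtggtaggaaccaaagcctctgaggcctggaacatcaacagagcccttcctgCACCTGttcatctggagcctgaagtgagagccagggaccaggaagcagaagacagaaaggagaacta
Among the 44 pDC identity genes outside the gate that had an entry, 8 held the motif (18.2%), a share close to that of all promoters.

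pDCs were rare in every library, and as a share of kept barcodes they were higher in each Decoy library than in the PBS library. The cells were sorted for GFP and c-Kit, so the shares and ratios here and below describe sorted barcodes and not the spleen. Decoy 2, 3, 5 and 6 held 3, 5, 26 and 14 pDCs, and the PBS library held 2. Their share of kept barcodes was 0.0480% in Decoy 2 (95% Clopper-Pearson interval 0.00990% to 0.140%), 0.258% in Decoy 3 (0.0837% to 0.600%), 0.721% in Decoy 5 (0.471% to 1.05%) and 0.435% in Decoy 6 (0.238% to 0.728%). It was 0.0116% in PBS (0.00141% to 0.0420%). The intervals of Decoy 3, 5 and 6 lay above that of PBS and the interval of Decoy 2 overlapped it. The mean was 0.365% ± 0.285 in Decoy (SD, n = 4), against 0.0116% in PBS (n = 1), a difference of 0.354 points, higher in 4 of 4 Decoy libraries (two-sided exact permutation p = 0.4, in a design whose smallest p is 0.2). Intervals here and below cover counting error only.

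The denominator differed between libraries: barcodes with 5 or more mast cell UMIs per 10000 numbered 4811 of 6252 in Decoy 2, 402 of 1941 in Decoy 3, 13 of 3607 in Decoy 5 and 1406 of 3221 in Decoy 6, against 14498 of 17219 in PBS. Among kept barcodes with fewer than 5 mast cell UMIs per 10000, pDCs were 0.507% ± 0.282 in Decoy (SD, n = 4) and 0.0735% in PBS (exact permutation p = 0.4). Set against B cells of the same library, there were 2.11, 1.39, 2.21 and 3.1 pDCs per 100 B cells in Decoy 2, 3, 5 and 6 (mean 2.20 ± 0.705, SD, n = 4) and 1.03 in PBS (exact permutation p = 0.4). Set against macrophages the order turned round: 3.45, 1.54, 4.55 and 4.62 pDCs per 100 macrophages in Decoy (mean 3.54 ± 1.44, SD, n = 4) and 7.14 in PBS, where 2 pDCs faced 28 macrophages (exact permutation p = 0.2). The direction of the Decoy to PBS difference thus depended on the population the pDCs were counted against, and none of these differences passed 0.05.

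**Figure D1:**
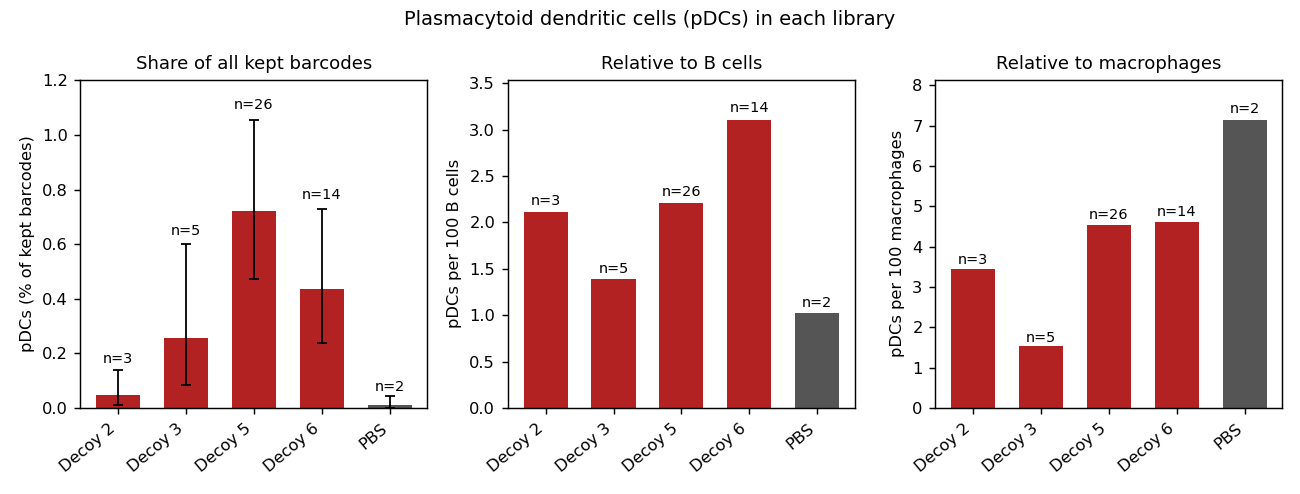
Bars give the number of pDCs as a percentage of kept barcodes (left, with 95% Clopper-Pearson intervals), per 100 B cells (middle) and per 100 macrophages (right) in the 4 Decoy libraries (red) and the PBS library (grey), with the number of pDCs above each bar. PBS is lowest in the left and middle panels, at 0.0116% and 1.03 per 100 B cells, and highest in the right one, at 7.14 per 100 macrophages.

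The 48 Decoy pDCs held 851301 UMIs, a median of 12174 per cell (5709 to 71347) over a median of 3281 genes. One UMI therefore stood for 1.17 UMIs per 1000000 (CPM) in the pooled Decoy pDCs, but for 45.9 CPM in the 2 PBS pDCs, which held 21789 UMIs. B cells (2131 in Decoy) and macrophages (1287 in Decoy) of the same libraries, chosen by their own marker genes, held medians of 7741 and 20432 UMIs. The gate was not sensitive to the Siglech minimum: 0 members held exactly 2 Siglech UMIs, and a minimum of 1 or 3 UMIs gave the same 50 barcodes. Just inside the gate stood 8 barcodes with exactly 2 of the 5 further genes, and just outside it 1 barcode with only 1 of them. A further 28 barcodes had 2 or more of the further genes but no Siglech UMI, and 2 were left out for T cell or mast cell UMIs. Decoy 2 and PBS shared 37 cell barcodes, other pairs of libraries 1 to 19, and 1 pDC barcode, in Decoy 2 and PBS, was among the shared ones.

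Some members carried RNA of other lineages. Among the 48 Decoy pDCs, 6 had at least 3 UMIs of the macrophage genes C1qa, C1qb and C1qc, 4 had at least 3 UMIs of B cell marker genes, 1 had 2191 of the 2233 UMIs of the neutrophil gene S100a8, and 1 had 20 or more UMIs of the erythroid gene Car1. These were 11 different cells, 0 in Decoy 2, 1 in Decoy 3, 6 in Decoy 5 and 4 in Decoy 6, with a median of 22269 UMIs and together 42.6% of all pooled UMIs. The 4 Decoy pDCs with the most UMIs were all among them. Each of the 11 held 6 to 28 Siglech UMIs. Over whole marker lists, the summed level in Decoy pDC libraries ranged from 0 to 3807 CPM for the 6 macrophage genes (6 detected, 9050 CPM in macrophages), from 0 to 479 CPM for the 5 B cell genes (5 detected, 2913 CPM in B cells) and from 74.8 to 19229 CPM for the 4 neutrophil genes (4 detected). The 3 T cell genes were at 0, as the gate requires in part, and of the 3 NK cell genes Ncr1 and Klrb1c were at 0 while Klre1 had 3 UMIs in 3 of 48 pDCs (6.25%), against 0.328% of B cells. With every cell thinned to 3000 UMIs, Klre1 was in 0 of 48 pDCs and 0.0955% of 2094 B cells, so no order is read from these shares. Whether the droplets with RNA of other lineages held more than 1 cell was not tested. For genes given with their level, the pooled value without the 11 cells therefore follows where it moved by more than 1.5 times.

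Siglech, the first gene of the gate, stood at 1027, 703, 662 and 710 CPM in the pDCs of Decoy 2, 3, 5 and 6, and each cell held 3 to 28 UMIs of it. B cells and macrophages of the Decoy libraries held 0 UMIs of Siglech, in 2131 and 1287 cells, which allows a share of cells with a UMI of up to 0.141% and 0.233%. Barcodes that met the pDC gate were kept out of both classes, so this 0 was fixed in part by the rule. Barcodes with mast cell genes held 2 Siglech UMIs in 6632 Decoy barcodes, both in Decoy 6. Cox6a2 stood at 2894, 1399, 1412 and 1444 CPM in the 4 Decoy libraries, was found in 46 of 48 cells, and pooled to 1475 CPM, against 2.66 CPM in B cells and 1.43 CPM in macrophages. Without the 11 cells with other RNA its pooled level was 2289 CPM. Ccr9 stood at 1898, 1077, 626 and 614 CPM in 42 of 48 cells, pooled to 741 CPM, against 2.66 and 0.170 CPM in B cells and macrophages. Klk1 was uneven, at 31.1, 29.9, 308 and 411 CPM, and was found in 20 of 48 cells. Pacsin1 pooled to 107 CPM in 40 cells and Cd300c to 92.8 CPM in 27 cells. Of the 48 cells, 8, 11, 19 and 10 carried 2, 3, 4 and 5 of the 5 further genes. Siglech lies on chromosome 7 at 55768178 to 55778925, Klk1 on chromosome 7 at 44225360 to 44229618, Cox6a2 on chromosome 7 at 128205435 to 128206387, Ccr9 on chromosome 9 at 123678439 to 123784330, Cd300c on chromosome 11 at 114956116 to 114969157 and Pacsin1 on chromosome 17 at 27655509 to 27711482 (GENCODE vM21, mm10). Klk1 belongs to a family of near-identical kallikrein genes, so its counts may include or lose reads of its copies.

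Genes that the gate did not use were then set against B cells and macrophages of the same libraries. Because the cells were chosen by expression, this contrast is a description without a test: a gene is called higher when its level in the pDCs of both Decoy 5 and Decoy 6, the 2 libraries with at least 10 members, lay above both levels in the other class, and lower in the opposite case. Over all genes with a mean of at least 20 CPM, 53.2% were higher and 14.5% lower than in B cells (6111 genes), and 41.7% were higher and 31.2% lower than in macrophages (6462 genes). Scaled by total UMIs, the median gene was 0.37 log2 units above B cells and 0.15 above macrophages. Scaled by the trimmed mean of M-values (TMM), the medians were -0.03 and -0.13, and the splits became 28.1% higher and 34.9% lower than B cells, and 27.3% higher and 46.0% lower than macrophages. The split between higher and lower thus moved with the scaling, and list counts are given under both.

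Most pDC identity genes outside the gate lay above both other classes. Of 58 pDC identity genes, 56 were detected, and 46 of the 53 compared with B cells were higher and 3 lower, beside 53.2% and 14.5% of all genes; under TMM scaling 43 of 52 were higher and 4 lower. Against macrophages 46 of 52 were higher and 3 lower, and 41 of 51 and 5 under TMM scaling, beside 41.7% and 31.2% of all genes. Under TMM scaling the shares of all genes were 28.1% and 34.9% against B cells and 27.3% and 46.0% against macrophages. Their median log2 ratio was 3.83 over B cells and 3.58 over macrophages, where the median of all genes was 0.36 and 0.16. The summed level of the list was 23785 to 36684 CPM in pDCs of the 4 Decoy libraries, 6899 to 8634 CPM in B cells and 8251 to 9815 CPM in macrophages. The list was drawn from genes known to mark pDCs and was chosen with earlier results of these data known. Its direction is therefore a description, neither an independent check of the label nor a finding.

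Bst2, the antigen that pDC-depleting antibodies bind, stood at 3143, 1608, 1945 and 1776 CPM in the pDCs of Decoy 2, 3, 5 and 6 and was found in 48 of 48 cells. It pooled to 1888 CPM, against 111 CPM in B cells (17.0-fold) and 332 CPM in macrophages (5.69-fold), with no overlap between libraries. Ly6c2, a surface antigen of pDCs and monocytes, stood at 1462, 1780, 1805 and 1772 CPM, against 78.6 to 311 CPM in B cells and 485 to 698 CPM in macrophages. Ly6d, shared with the B cell lineage, stood at 6845, 3605, 2525 and 3304 CPM, a range that overlapped the 1764 to 2551 CPM of B cells and lay above the 0.475 to 5.04 CPM of macrophages. Cd7, an immunoglobulin-family receptor, stood at 1276, 180, 439 and 355 CPM, against 0.494 and 0.748 CPM in B cells and macrophages, and its pooled 405 CPM was 669 CPM without the 11 cells with other RNA. Klrd1, the NK cell receptor chain CD94, was found in 40 of 48 cells at 203 CPM (317 CPM without the 11 cells), against 5.10 and 1.73 CPM. Among genes outside all lists with the largest ratio, Gm34680, a predicted gene, stood at 591, 411, 446 and 487 CPM in 43 cells, against 0.456 and 0.952 CPM, with a pooled 458 CPM that was 719 CPM without the 11 cells. Cd8b1, a CD8 chain, stood at 31.1, 329, 221 and 247 CPM in 21 cells, against 0.456 and 0.170 CPM. The other genes named by that rule were Ddr1, Fads2, Sox4, Atp2b4, Fads3, Jaml, Mctp2, Rell1 and Gm4258, each between 56.4 and 201 CPM pooled in pDCs and below 10 CPM in both other classes; Sox4, at 84.6 CPM, was at 131 CPM without the 11 cells.

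**Figure D2:**
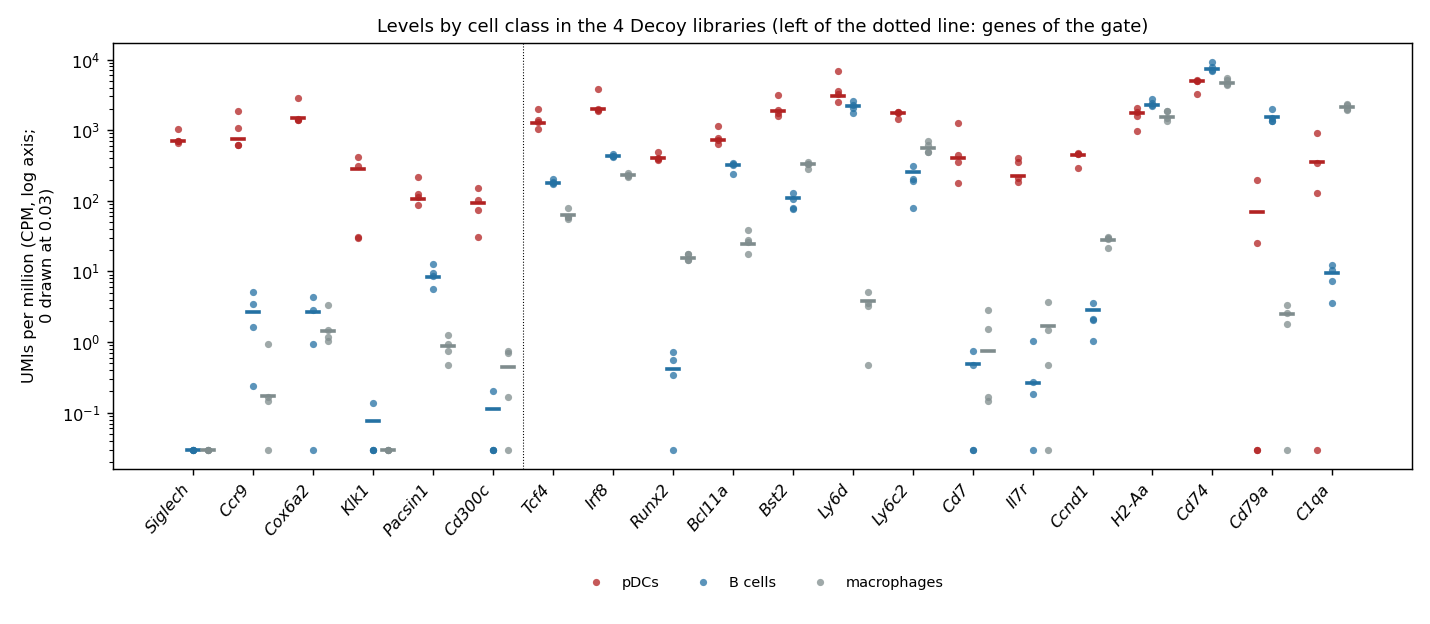
Each point is the level of a gene in 1 Decoy library on a log axis in CPM, for pDCs (red), B cells (blue) and macrophages (grey), with values of 0 drawn at the foot of the axis, and each bar the pooled level; genes left of the dotted line belong to the gate. Tcf4, Irf8, Runx2 and Bst2 separate pDCs from both other classes in every library, Ly6d overlaps B cells, and H2-Aa and Cd74 lie lower in pDCs than in B cells.

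Tcf4, Irf8, Runx2 and Bcl11a, transcription factors of pDC development, were high. Tcf4 stood at 2022, 1391, 1311 and 1053 CPM in pDCs of Decoy 2, 3, 5 and 6, in 48 of 48 cells, against 174 to 202 CPM in B cells and 54.8 to 78.6 CPM in macrophages. Its pooled level of 1275 CPM (95% Poisson interval 1200 to 1353) was 7.03-fold that of B cells and 20.3-fold that of macrophages. Irf8, needed for dendritic cell development, stood at 3889, 1975, 1927 and 1891 CPM in 47 of 48 cells, against 437 CPM in B cells (4.57-fold) and 234 CPM in macrophages (8.54-fold). The 1 cell without Irf8, in Decoy 5, also had no Ly6d. Runx2, which supports pDC exit from bone marrow, stood at 498, 381, 407 and 391 CPM, against 0.418 CPM in B cells and 15.5 CPM in macrophages. Bcl11a, a repressor required in lymphoid and pDC precursors, pooled to 726 CPM, against 320 and 24.3 CPM. All 4 of these genes lay above every B cell and macrophage library. Spib, an Ets factor that protects pDC survival, pooled to 133 CPM, overlapping B cells (80.8 to 109 CPM) and above macrophages (0.510 CPM).

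Levels of other factors were mixed. Id2, an inhibitor of E proteins, pooled to 120 CPM in 15 of 48 cells, against 52.7 CPM in B cells and 525 CPM in macrophages, and to 32.8 CPM without the 11 cells with other RNA. Irf4 had 1 UMI. Zeb2 pooled to 399 CPM, against 159 and 688 CPM. The conventional dendritic cell factors Batf3 and Zbtb46 were found in 4 and 5 cells, and Batf3, at 25.8 CPM, was at 6.14 CPM without the 11 cells. Of the 33 factors listed, 18 of 28 compared were higher and 7 lower than in B cells (16 and 8 under TMM scaling), beside 53.2% and 14.5% of all genes (28.1% and 34.9% under TMM scaling). Against macrophages 16 of 24 were higher and 5 lower (14 of 24 and 6 under TMM scaling), beside 41.7% and 31.2% of all genes (27.3% and 46.0%).

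Tlr7 was counted in 27 of the 48 pDCs and Tlr9 in 2. Tlr7, the receptor for single-stranded RNA, stood at 93.3, 59.8, 52.9 and 87.8 CPM in pDCs of Decoy 2, 3, 5 and 6. It stood at 13.2 CPM in B cells and 44.1 CPM in macrophages, with no overlap of libraries under scaling by total UMIs. TMM scaling lowers pDC levels (factors of 1.08 to 1.66) and raises macrophage levels (0.908 to 0.923), so the gap to macrophages depends on the scaling. The Decoy 2 value rests on few UMIs. Tlr9, the receptor that the CpG part of the treatment binds, gave 2 UMIs, or 2.35 CPM (Poisson interval 0.285 to 8.49), against 2.85 CPM in B cells and 2.21 CPM in macrophages. That interval includes the levels of both other classes. A Tlr9 UMI was found in 4.17% of pDCs and 3.43% of B cells, at median depths of 12174 and 7741 UMIs. With every cell thinned to 3000 UMIs the shares were 0 of 48 pDCs and 1.00% of 2094 B cells (37 left out), so no order is read from them. Both Tlr9 UMIs lay in cells that also carried other RNA. Unc93b1, which carries these receptors to the endosome, was found in all 48 cells at 449 CPM, against 270 and 417 CPM. Pld4, an endosomal nuclease, was found in all 48 cells at 540 CPM, against 149 and 465 CPM, and Ctsl, a protease that cleaves the receptors, at 496 CPM, against 7.42 and 310 CPM. Myd88, the adaptor of both receptors, pooled to 42.3 CPM, against 20.8 and 131 CPM, and to 22.5 CPM without the 11 cells. Irf7, which drives interferon genes downstream, stood at 93.3, 105, 232 and 184 CPM in 36 cells, against 12.3 to 18.3 CPM in B cells and 270 to 341 CPM in macrophages. Of the 37 genes of this list, 18 of 25 compared were higher and 3 lower than in B cells (12 of 27 and 5 under TMM scaling). Beside them, 53.2% of all genes were higher and 14.5% lower (28.1% and 34.9% under TMM scaling). Against macrophages 8 of 29 were higher and 14 lower (4 of 31 and 22 under TMM scaling), beside 41.7% and 31.2% of all genes (27.3% and 46.0%).

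No type I or type III interferon transcript was counted in pDCs, while B cells and macrophages of the Decoy libraries held 1 and 0 such UMIs. The 20 type I and type III interferon genes in the files, the alpha genes, Ifnb1, Ifne, Ifnk, Ifnz and the lambda genes, held 0 UMIs in the 48 Decoy pDCs and 0 in the 2 PBS pDCs, which allows up to 3.52 CPM per gene in the pooled Decoy pDCs and up to 6.25% of cells with a UMI of a given gene. A cell that expresses a gene at a low level can give no UMI, so this does not limit the share of cells that express it. Alpha interferon genes are near-identical, so reads shared between them may not have been counted. Of 42 interferon, cytokine and chemokine ligands, 16 were detected, and most UMIs came from few cells. Ccl4, a chemokine, stood at 0, 22.4, 396 and 0 CPM and came from 4 cells (pooled 206 CPM, and 356 CPM without the 11 cells). Cxcl10, an interferon-induced chemokine, stood at 0, 0, 143 and 0 CPM, from 5 cells, and its pooled 72.8 CPM was 22.5 CPM without the 11 cells. Il12b and Il6 were at 0 UMIs, and Tnf had 14 UMIs in 5 cells. Tgfb1 was found in 42 of 48 cells at 207 CPM, against 84.1 and 351 CPM.

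The summed interferon response genes lay above B cells. They lay below macrophages of the same library in each Decoy library, although the ranges over libraries overlapped. The summed level of 42 such genes was 9148, 7996, 10325 and 8395 CPM in pDCs of Decoy 2, 3, 5 and 6. It was 3369 to 4166 CPM in B cells, and 12363, 9979, 11275 and 10754 CPM in macrophages of the same libraries in that order. Of those compared, 22 of 32 were higher and 4 lower than in B cells (18 and 5 under TMM scaling). Against macrophages 8 of 38 were higher and 24 lower (6 of 39 and 28 under TMM scaling). Over all genes 53.2% were higher and 14.5% lower than in B cells (28.1% and 34.9% under TMM scaling). The shares of all genes against macrophages were 41.7% and 31.2% (27.3% and 46.0%). Across all 4 Decoy libraries 11 of 29 were higher and 2 lower than in B cells, beside 24% and 7.17% of all genes, and 4 of 38 were higher and 21 lower than in macrophages, beside 20% and 16.3%. Ly6e, a surface protein, Bst2 and Ifi27l2a together held most of the sum; Ifi27l2a stood at 933, 1047, 2116 and 1664 CPM, against 830 and 1136 CPM pooled in B cells and macrophages. Ifitm3, a membrane protein that blocks virus entry, stood at 156, 292, 1072 and 531 CPM, and its pooled 755 CPM was 231 CPM without the 11 cells, with 2483 CPM in macrophages. Isg15 was found in 18 of 48 cells and Usp18, an inhibitor of the response, in 19.

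Many response genes carry an interferon-stimulated response element. Its core, searched as GAAA, any 2 bases and GAAA, or as TTTC, any 2 bases and TTTC on the other strand, was found in the 250 bases before the start of 15 of the 32 response genes with an entry (46.9%) and of 3.04% of all promoters. The Bst2 promoter (chr8:71537473-71537722, GRCm38.p6, minus strand), shown because Bst2 was both an interferon response gene and high in every pDC, held 2 overlapping matches, 130 and 124 bases before the start and joined in the capitals. The Irf7 promoter window held 0.
Bst2: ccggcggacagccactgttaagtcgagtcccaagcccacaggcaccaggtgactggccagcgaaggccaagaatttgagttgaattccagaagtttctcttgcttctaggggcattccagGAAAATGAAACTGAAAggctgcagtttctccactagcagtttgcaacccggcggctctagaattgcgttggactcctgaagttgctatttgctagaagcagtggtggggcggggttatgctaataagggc

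Cytokine receptors and STAT genes were read for the pathway that the decoy addresses. Stat3 stood at 62.2, 180, 117 and 99.8 CPM in the pDCs of Decoy 2, 3, 5 and 6, in 35 of 48 cells, against 45.4 to 63.5 CPM in B cells and 117 to 124 CPM in macrophages. It was higher than in B cells in Decoy 5 and 6, but over all 4 Decoy libraries the ranges overlapped those of both classes. Ifnar1 and Ifnar2, the type I interferon receptor chains, pooled to 99.8 and 324 CPM, against 25.5 and 40.1 CPM in B cells and 44.9 and 213 CPM in macrophages, above every library of both classes. Flt3, the receptor for the growth factor of dendritic cells, stood at 93.3, 82.3, 92.0 and 79.8 CPM, against 7.19 and 0.646 CPM, and pooled to 86.9 CPM (137 CPM without the 11 cells). Il7r, the interleukin-7 receptor of lymphoid precursors, stood at 404, 352, 184 and 211 CPM, against 0.266 and 1.70 CPM, and Csf2rb2, a beta chain for interleukin-3, pooled to 106 CPM, against 1.52 and 25.9 CPM. The feedback inhibitor Socs3 had UMIs in 8 cells and Socs1 in 7. Of this list 22 of 29 compared genes were higher and 4 lower than in B cells (18 and 5 under TMM scaling). Against macrophages 8 of 31 were higher and 18 lower (8 and 21). Over all genes 53.2% were higher and 14.5% lower than in B cells (28.1% and 34.9% under TMM scaling). The shares of all genes against macrophages were 41.7% and 31.2% (27.3% and 46.0%).

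Most genes of the antigen presentation list were lower than in B cells, 11 of 15 compared, while 4 were higher. H2-Aa, an MHC class II chain, stood at 965, 2087, 1796 and 1580 CPM in pDCs of Decoy 2, 3, 5 and 6, against 2168 to 2729 CPM in B cells and 1367 to 1889 CPM in macrophages. Cd74, the invariant chain, stood at 3267, 5124, 5041 and 4932 CPM, against 6867 to 9216 CPM in B cells and 4334 to 5456 CPM in macrophages. Both genes lay below every B cell library and overlapped macrophages. The costimulatory genes Cd40, Cd80, Cd83 and Cd86 had UMIs in 5, 2, 4 and 13 of 48 cells. Under TMM scaling 11 of 15 were lower and 2 higher; over all genes 14.5% were lower and 53.2% higher, and 34.9% and 28.1% under TMM scaling. H2-DMa, which loads peptides, was among the higher ones, at 469 CPM against 316 CPM.

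Homing and adhesion genes beside Ccr9 included Selplg and Itgb7, both above every B cell and macrophage library. Selplg, the ligand of P-selectin, pooled to 503 CPM, against 37.9 and 262 CPM, and Itgb7, an integrin chain of gut homing, to 162 CPM, against 21.1 and 39.4 CPM. Cxcr3 and Ccr7 had UMIs in 14 and 7 of 48 cells, and Ccr2, a monocyte receptor, in 9, at 83.4 CPM (36.8 CPM without the 11 cells). Of 20 receptors outside the gate, 9 of 16 compared were higher and 5 lower than in B cells (the same counts under TMM scaling), close to the 53.2% of all genes that were higher, and 8 of 15 were higher and 6 lower than in macrophages (8 and 7). Among surface receptors, Lair1, an inhibitory collagen receptor, was found in all 48 cells at 392 CPM, against 10.0 and 331 CPM, and Tyrobp, the signalling adaptor that pairs with Siglech, in all 48 at 2222 CPM, against 77.5 and 2438 CPM. Lag3, an inhibitory receptor, pooled to 105 CPM in 33 cells, against 1.06 and 11.7 CPM. Of 27 surface genes outside the gate, 20 of 26 compared were higher and 5 lower than in B cells (19 and 7). Against macrophages 8 of 25 were higher and 16 lower (7 and 17). Beside both lists, 53.2% of all genes were higher and 14.5% lower than in B cells (28.1% and 34.9% under TMM scaling). The shares of all genes against macrophages were 41.7% and 31.2% (27.3% and 46.0%).

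B lineage traits were partial. Dntt, the terminal transferase of lymphoid precursors, had 29 UMIs in 14 of 48 cells, or 34.1 CPM, against 0.0761 CPM in B cells and 0 UMIs in macrophages. Ighm, the mu heavy chain, was found in all 48 pDCs at 1120, 785, 642 and 786 CPM, against 3186 to 5039 CPM in B cells and 57.5 to 657 CPM in macrophages. Igkc, the kappa light chain, was in all 48 cells too, at 876 CPM, but stood at 1431 CPM in macrophages and 21200 CPM in B cells, so its level in pDCs was at or below that of a class that should lack it. Rag1 had 0 UMIs and Rag2 1. The B cell factors Pax5 and Ebf1 had UMIs in 4 and 5 cells, and without the 11 cells Pax5 was at 0 and Ebf1 at 2.05 CPM. Of 21 genes outside the gates, 2 of 17 compared were higher and 13 lower than in B cells (2 and 14 under TMM scaling). Over all genes 53.2% were higher and 14.5% lower than in B cells (28.1% and 34.9% under TMM scaling). Among markers of conventional dendritic cells, Clec9a was found in 29 of 48 pDCs at 93.3, 97.2, 96.6 and 108 CPM, against 0.456 CPM in B cells and 1.56 CPM in macrophages. Itgax, the CD11c chain, was found in 29 cells at 128 CPM, and Xcr1 in none.

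Counts of secretory and cytochrome c oxidase genes moved with the scaling, and most cell cycle genes were above macrophages in Decoy 5 and 6. Of 34 secretory pathway genes, 20 of 33 compared were higher and 4 lower than in B cells, but 8 and 8 under TMM scaling, beside 53.2% and 14.5% of all genes (28.1% and 34.9%). Against macrophages 13 of 32 were higher and 8 lower, but 7 and 15 under TMM scaling. Of cytochrome c oxidase subunits other than Cox6a2, 7 of 11 were higher and 0 lower than in B cells, but 2 higher and 7 lower under TMM scaling, and against macrophages 3 were higher and 6 lower, with 0 and 10 under TMM scaling. Of 32 cell cycle genes, 9 of 31 compared were higher and 6 lower than in B cells (5 and 9 under TMM scaling), and 26 of 30 were higher and 0 lower than in macrophages (21 and 0), beside 41.7% and 31.2% of all genes. Over all 4 Decoy libraries only 7 of 30 were higher than in macrophages (5 under TMM scaling) and 0 lower, beside 20% and 16.3% of all genes. Ccnd1, a cyclin of G1 phase, stood at 467, 292, 458 and 479 CPM in pDCs of Decoy 2, 3, 5 and 6, in 46 of 48 cells, against 2.81 CPM in B cells (156-fold) and 27.7 CPM in macrophages (15.8-fold). Of 20 survival genes, 4 of 11 compared were higher and 5 lower than in B cells (2 and 6 under TMM scaling). Over all genes the shares were 53.2% and 14.5% (28.1% and 34.9%). Against macrophages 3 of 12 were higher and 8 lower (2 and 8), beside 41.7% and 31.2% of all genes (27.3% and 46.0%). Bcl2, which protects pDCs from death, pooled to 84.6 CPM (127 CPM without the 11 cells), against 137 and 32.9 CPM, and Mcl1 to 210 CPM, against 284 and 290 CPM.

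**Figure D3:**
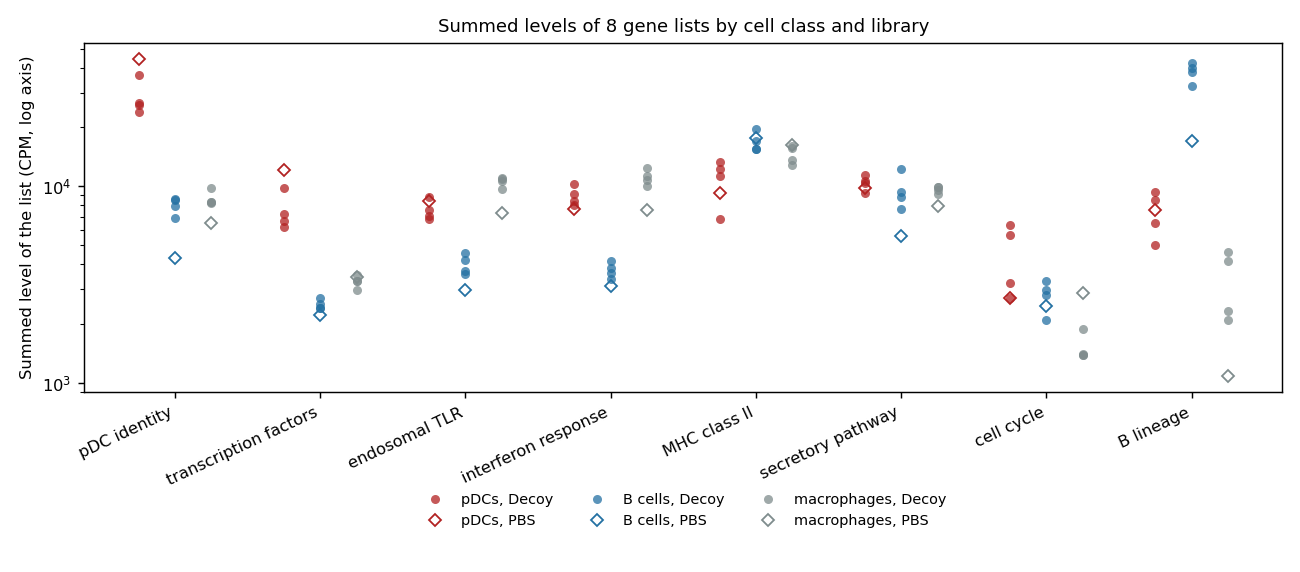
Summed levels of 8 gene lists are shown on a log axis in CPM, with filled circles for the 4 Decoy libraries and open diamonds for the PBS library, in pDCs (red), B cells (blue) and macrophages (grey). The pDC identity list lies at 23785 CPM or more in every pDC library and at 9815 CPM or less in both other classes. Interferon response genes in Decoy pDCs lie above B cells and below macrophages of the same library, with ranges that overlap macrophages.

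The 48 Decoy pDCs varied in gate genes and in genes outside the gate. Klk1 reached 3 or more UMIs in 11 cells, 6 in Decoy 5 and 5 in Decoy 6. Klk1, Cox6a2 and Ccr9 all belong to the gate, which asks for any 2 of 5 genes, so their joint levels among members are set in part by the gate and support no subset. In the cells with Klk1, Cox6a2 stood at 0 to 9.25 UMIs per 10000 (median 3.77), against 0 to 64.9 (median 23.5) in the other 37. Ccr9 had a median of 18.1 UMIs per 10000 in the cells with Klk1, against 3.50 in the others. Outside the gate, Ly6d had a median of 7.22, against 47.2. Summed over cells, Cd4 stood at 135 CPM in the Klk1 cells, against 10.6 CPM in the others, Irf7 at 332 CPM, against 152 CPM, and Tlr7 at 125 CPM, against 48.6 CPM. The precursor gene Sox4 was lower in them, at 15.6 CPM, against 105 CPM. The Klk1 cells had deeper barcodes, with a median of 18573 UMIs, against 11149, and 7 of the 11 were among the cells with RNA of other lineages, against 4 of the other 37. In the 4 Klk1 cells without such RNA, which had a median of 7243.5 UMIs, the medians were 4.07 for Cox6a2, 22.5 for Ccr9 and 6.54 for Ly6d, against 24.9, 3.50 and 51.0 in the other 33. Decoy 2 and Decoy 3 held none of the Klk1 cells, the split was made after the values were seen, and no test was made.

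Cycling genes split the cells in another way. Of the 48 Decoy pDCs, 18 (37.5%) held 3 or more UMIs of 13 genes of the G2 and M phases, 28.6% to 66.7% across the 4 libraries, against 24.4% of B cells and 26.7% of macrophages. After every cell was thinned to 3000 UMIs, the shares were 31.3% of 48 pDCs, 19.1% of 2094 B cells (37 left out) and 12.2% of 1143 macrophages (144 left out). None of the 11 Klk1 cells was among the 18. The cycling cells had a median of 19902 UMIs, against 9099.5 in the other 30. Ccr9 had a median of 0.965 UMIs per 10000 in the cycling cells, against 9.73 in the others, whereas Cox6a2 had medians of 21.3 and 20.4 and Ly6d of 38.0 and 35.5. Siglech had medians of 5.13 and 12.8. Ccr9, Cox6a2 and Siglech belong to the gate, a cut in raw UMIs favours deeper barcodes, and the other 30 cells include all 11 Klk1 cells. The medians of these 3 genes therefore support no subset, and no test was made. Mki67 and Top2a, standard proliferation genes, had UMIs in 18 and 21 of 48 cells.

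**Figure D4:**
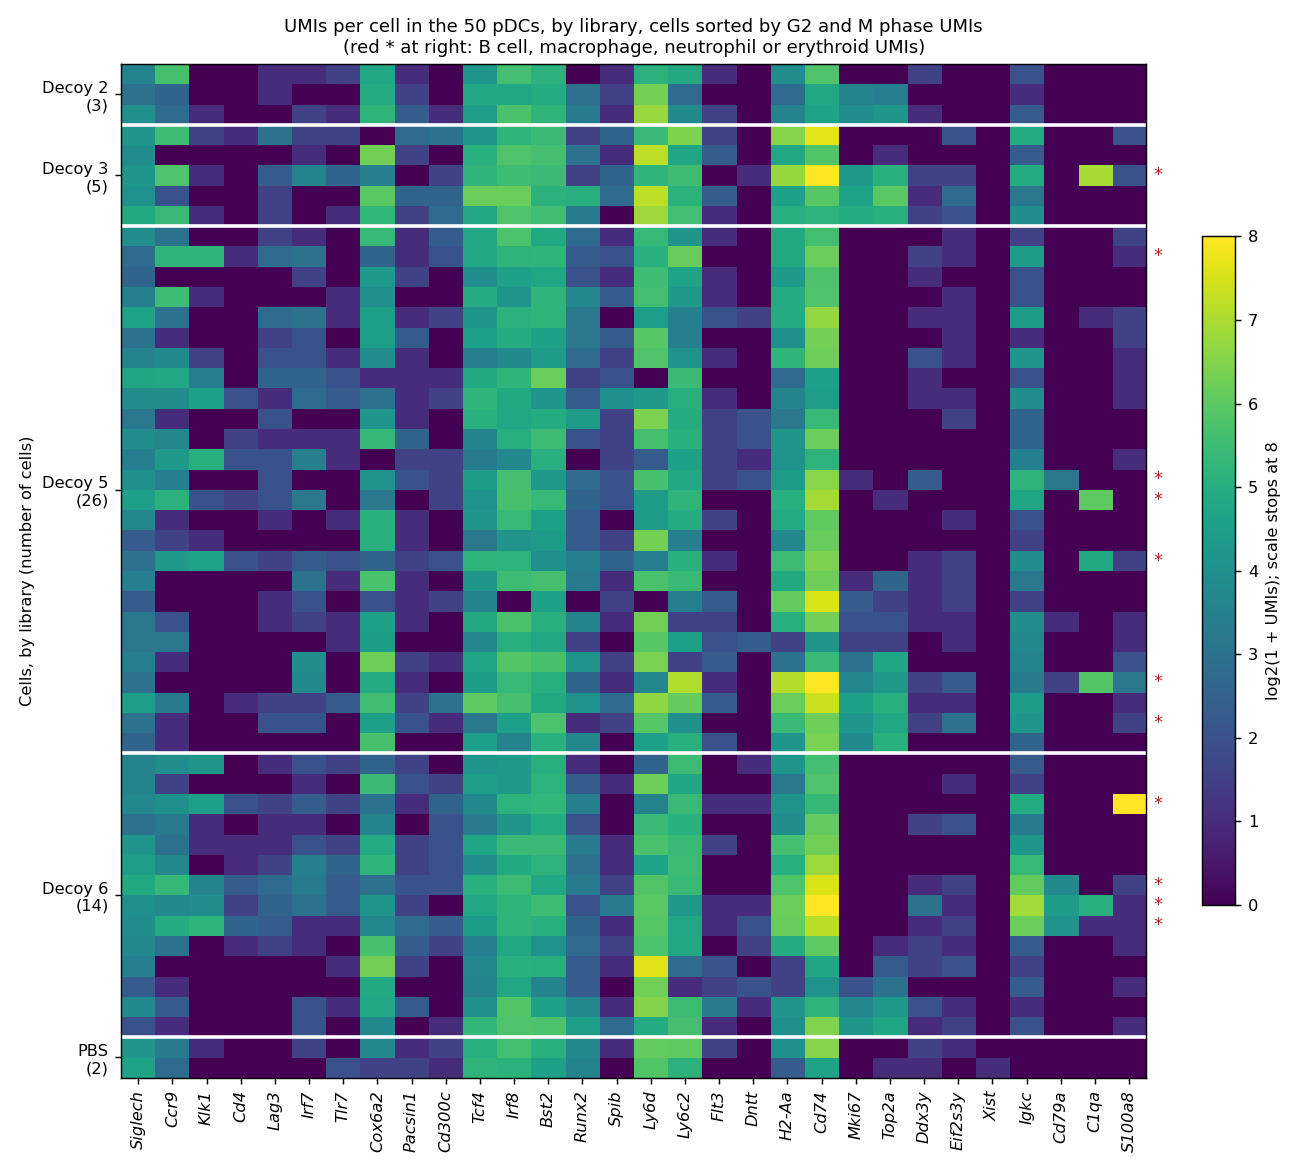
Each row is 1 of the 50 pDCs, grouped by library and sorted by G2 and M phase UMIs, and each column a gene, with colour giving log2(1 + UMIs); red asterisks mark cells with B cell, macrophage, neutrophil or erythroid UMIs. Tcf4 and Bst2 are present in every row, Klk1 reaches 3 or more UMIs only in rows of Decoy 5 and Decoy 6, and C1qa, Cd79a and S100a8 are high in marked rows.

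**Figure D5:**
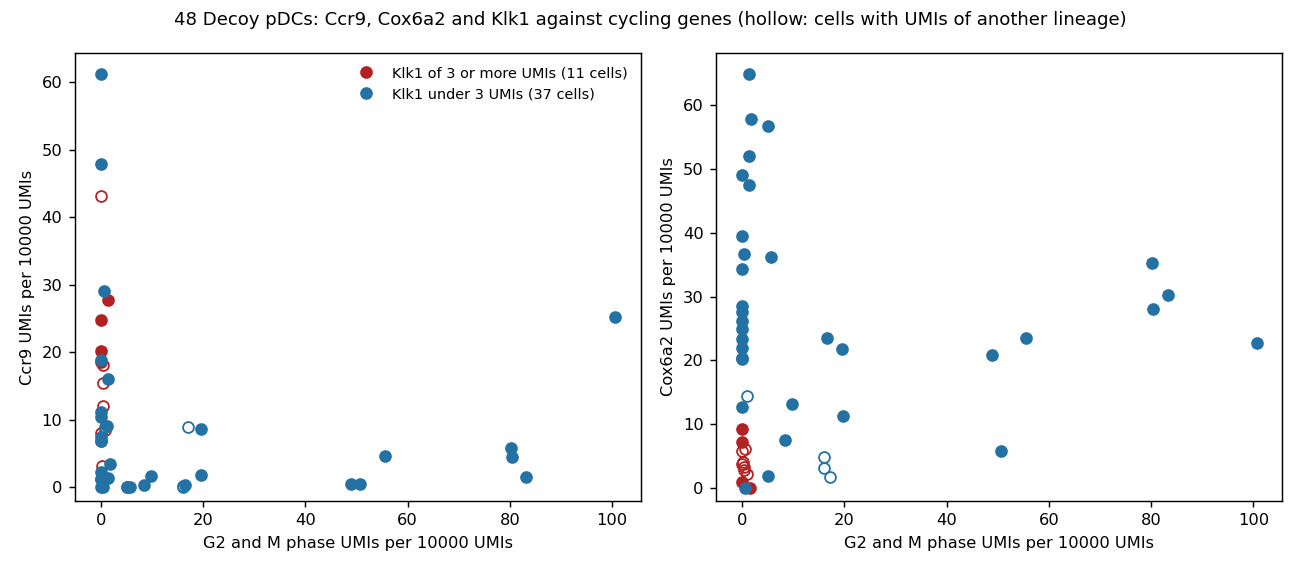
Ccr9 (left) and Cox6a2 (right) UMIs per 10000 are plotted against G2 and M phase UMIs per 10000 in the 48 Decoy pDCs, red for cells with 3 or more Klk1 UMIs and blue for the rest; hollow points are cells with RNA of other lineages. Cells with Klk1 lie at the left edge, with Cox6a2 of at most 9.25 per 10000.

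Sex-linked genes and Kit bear on the origin of these cells, since the sort was for GFP and c-Kit. The Y-linked genes Ddx3y, Eif2s3y, Kdm5d and Uty summed to 124, 180, 149 and 168 CPM in the pDCs of Decoy 2, 3, 5 and 6 and were found in 39 of 48 cells. Xist, expressed from the inactive X of female cells, had 0 UMIs in the 48 Decoy pDCs. B cells and macrophages of the Decoy libraries likewise had Y-linked genes at 105 to 171 CPM and 98.4 to 138 CPM, with Xist at 0.0680 to 44.4 CPM and 0 to 37.6 CPM. Barcodes rich in mast cell genes showed the opposite in Decoy 2, 3 and 6. Their Xist stood at 892, 1001 and 999 CPM and their Y-linked genes at 1.09, 10.9 and 7.68 CPM. In Decoy 5 only 13 such barcodes were present, with Xist at 0 and Y-linked genes at 142 CPM. Kit, the gene of the sorted antigen, had 5 UMIs in 4 of the 48 pDCs, all in Decoy 5, or 5.87 CPM pooled. In the mast-gene-rich barcodes Kit stood at 54.9, 47.3 and 45.7 CPM in Decoy 2, 3 and 6. In the 13 such barcodes of Decoy 5 it stood at 13.3 CPM, from 3 UMIs. Surface c-Kit and GFP protein were not measured in these files.

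The 2 PBS pDCs carried the same defining genes, with 24 and 17 Siglech UMIs, 36 and 32 Tcf4 UMIs, and 34 and 47 Irf8 UMIs. Tcf4 stood at 1053 to 2022 CPM in pDCs of the 4 Decoy libraries, against 3121 CPM in the PBS pDCs. Cox6a2 stood at 1399 to 2894 CPM in Decoy pDCs, against 643 CPM in PBS pDCs. Irf7 stood at 93.3 to 232 CPM in Decoy pDCs, against 91.8 CPM in PBS pDCs, where it had 2 UMIs. The interferon response list summed to 7996 to 10325 CPM in Decoy pDCs, against 7619 CPM in PBS pDCs. In the other classes its sum was also higher in each Decoy library than in PBS, at 3369 to 4166 CPM against 3115 CPM in B cells and at 9979 to 12363 CPM against 7543 CPM in macrophages. Y-linked genes gave 5 UMIs and Xist 1 UMI in the PBS pDCs. With 2 cells from 1 library there is no spread to set these values against, and no test of Decoy against PBS within pDCs was made.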

How the data were processed

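The 5 libraries of sorted spleen cells were made with a 10x 3' kit. The deposited values are raw UMI counts per gene and barcode over 32285 genes. Per the file headers the matrices come from Cell Ranger 5.0.0, and per the submitters' processing notes Cell Ranger 3.1, Seurat 4, DESeq2 and the mm10 build were used; annotation and doublet removal are not given in the sources used here. Kept barcodes had 500 or more genes, 1000 or more UMIs and a mitochondrial share of 10% or less, and the gate was applied per library. No doublet caller was run; members with RNA of other lineages were counted and left out in an alternative. B cells had at least 2 Cd79a UMIs and 2 further B cell genes, macrophages at least 10 C1q UMIs per 10000 and 2 further macrophage genes. Barcodes that met the pDC gate were kept out of both classes. Counts were summed per library and class and scaled by total UMIs to CPM; edgeR 4.0.16 gave TMM factors. The routine that calls genes without overlap was run on simulated counts with counting error only and no variation between libraries. That run does not show how often unchanged genes separate in real libraries. Shares were compared by an exact permutation test over the 5 libraries. The planned edgeR test of Decoy against PBS within pDCs, its interaction with cell class, and their alternatives needed 10 members in PBS and in 3 Decoy libraries and were not run, since PBS held 2 and only 2 Decoy libraries held 10 or more. Named genes were the fixed markers, up to 6 of the highest and 3 of the largest ratio in each list, and 12 genes outside the lists; other genes named were chosen after their values were seen. The members and the 15 gene lists were chosen with earlier results of these data known. One gene of the lists, Ly49q, was not matched. Some genes of the lists are not reported here by name.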

Additional observations from a re-analysis of the deposited data

Results flagged for a closer look

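Of 39 sets of values over the 4 Decoy libraries, 11 held a library far from the other 3. The limit used gives about 1 in 20 by chance only for normal values of equal precision. Here the libraries held 3 to 26 pDCs, and several genes stood at 0 in some libraries. The count of 11 is therefore not set against a chance rate. Siglech and Cox6a2, named below, also belong to the gate. In the 3 pDCs of Decoy 2, Siglech (1027 CPM), Cox6a2 (2894 CPM) and Irf8 (3889 CPM) stood above the other libraries, and Ly6c2 (1462 CPM) and Cd74 (3267 CPM) below them; that library's pDCs held 32139 UMIs, and 0 of its 3 cells met the limits for RNA of other lineages. Ccnd1 was lowest in Decoy 3, at 292 CPM. In Decoy 6, S100a8 (8770 CPM) came almost entirely from 1 cell, its pooled 2623 CPM was 45.0 CPM without the 11 cells with other RNA, and Cd79a stood at 196 CPM, where the 4 Decoy libraries together had 6 cells with a Cd79a UMI and the pooled 70.5 CPM was 2.05 CPM without the 11 cells. In Decoy 5, Car1 (727 CPM), Ccl4 (396 CPM) and Cxcl10 (143 CPM) stood above the other libraries, with UMIs in 3, 4 and 5 of the 48 Decoy pDCs; only 1 cell had 20 or more Car1 UMIs, and the pooled 371 CPM of Car1 was 2.05 CPM without the 11 cells. The part of cell number in these values was not tested.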

How the results depend on the processing

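No paired analysis was possible because PBS and Decoy share no replicate number. The share difference stayed positive, 0.268 to 0.361 points under the 8 gate settings tried (exact permutation p = 0.4 in each), 0.433 against barcodes low in mast cell genes, and 0.235 to 0.459 when 1 Decoy library was left out (exact permutation p = 0.5). The number of pDCs was 39 to 51 under the gate alternatives except at a mitochondrial limit of 5%, where 31 remained and PBS held 0. Counts of genes without overlap depended on scaling and libraries: TMM gave 1727 higher and 2147 lower than B cells and 1757 higher than macrophages (total scaling 3251, 887 and 2694); a 5 CPM floor gave 1553 lower than B cells. All 4 Decoy libraries, an alternative chosen after seeing the data, gave 1505 higher and 449 lower than B cells and 1314 higher and 1073 lower than macrophages, and with TMM 678 higher and 1080 lower than B cells and 628 higher and 1946 lower than macrophages. Leaving out 1 Decoy library gave 3251 to 4678 higher and 887 to 1817 lower than B cells (1817 without Decoy 5, 1611 without Decoy 6), and 2694 to 3874 higher and 2014 to 2908 lower than macrophages. These ranges test no stability: the calls use Decoy 5 and 6 alone, so leaving out Decoy 2 or 3 returns the same counts, and leaving out Decoy 5 or 6 leaves 1 library, where no gene can overlap. The same holds for pDC identity genes higher than B cells (46 to 47) and macrophages (46 to 47). Leaving out the 11 cells with other RNA was also chosen after seeing the data. Planned tests of Decoy against PBS within pDCs were not run. Depth limits Decoy pDCs to 3.52 CPM per undetected gene and PBS pDCs to 138 CPM.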
